A study of Homo sapiens with 6 samples.

Results

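The genes described here are 38 members of the NF-kB system, chosen by name from the pathway's biology with earlier results of these data known. They were found by their symbols in a table of 60664 genes. All 38 were in the table, and 36 had enough counts to be tested. The counts come from PC9OR, a human lung cancer line whose cells were given either a control, labelled NC, or an siRNA against GLMP, labelled si-GLMP, with 3 libraries in each group. Both groups are the same cell line and differ, as far as the labels say, only in the knockdown of GLMP, which encodes a glycosylated protein of the lysosomal membrane. The number of siRNA sequences, the time after transfection and any drug in the medium are not stated in the labels, and all libraries come from 1 line. The labels do not tell whether replicates were separate cultures, so the p-values reflect only how far these libraries scatter, and that scatter may be technical.

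NF-kB is a family of dimeric transcription factors that wait in the cytoplasm, held there by inhibitor proteins named IkB. In the canonical branch, a receptor signal activates the IkB kinase complex, IkB is destroyed, and dimers of RELA and p50 enter the nucleus. In the non-canonical branch, the kinase NIK accumulates and drives the processing of p100 into p52, which pairs with RELB. The factor switches on its own inhibitors, so the genes of negative feedback are themselves among its best known targets, and in airway epithelium its effector targets include neutrophil-attracting and survival genes. The members fall into pathway components (5 subunits, 5 kinase genes and 6 adaptors), negative feedback genes (5 inhibitors of the IkB type and 4 ubiquitin editors) and effector targets (6 cellular products and 7 secreted cytokines). BCL3 and NFKBIZ are placed among the inhibitors by family. Their proteins work in the nucleus, and that of NFKBIZ helps to induce targets, so a rise of this group is not a measure of restraint.

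Because many members are known to be switched on by NF-kB itself, the promoters were read for its recognition sequence, the kB consensus. Its 10 bases are GGG, a purine, any base, A or T, a pair of pyrimidines and CC. RefSeq promoter windows of 300 bases (250 before to 50 after the start site, build GRCh38.p14) were available for 31 of the 38 members, and RELB, IKBKB, RIPK2, NFKBIE, LIF, CSF1 and CSF3 had no entry. Both strands were searched, and overlapping matches were counted separately. At least 1 window held a match in 17 of these 31 members (54.8%), against 7.09% of 27305 genes with a window. A match was found for 10 of the 15 members called higher in si-GLMP and for 7 of the other 16. Members were chosen as genes of this pathway, and some have several start sites, so their share is a description of the set. Among the 10956 tested genes with a window, a match was found for 9.37% of 1451 called higher, 10.1% of 1372 called lower and 8.63% of 8133 not called. Differences between these shares were not tested. The shares depend on the pattern: a pattern of GGG, any pair of bases and TTTCC stood in 15 of the 51 windows of members and 1.91% of all 35116 windows, the consensus in 21 and 5.91%, and a looser one with any bases between GGG and CC in 50 and 58.7%. A match is a run of letters and not evidence of binding. A window without a match does not show that a gene lacks a site, since other patterns and other regions were not read.

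Whole windows are given for an inhibitor and for the pair of targets with the largest fold changes, to show where the match lies in genes that rose. They read 5′ to 3′ on the gene's strand, with the match in capitals. NFKBIA is on the minus strand at chr14:35404700-35404999, IL6 on the plus strand at chr7:22726950-22727249 and LCN2 on the plus strand at chr9:128149203-128149502.
NFKBIA: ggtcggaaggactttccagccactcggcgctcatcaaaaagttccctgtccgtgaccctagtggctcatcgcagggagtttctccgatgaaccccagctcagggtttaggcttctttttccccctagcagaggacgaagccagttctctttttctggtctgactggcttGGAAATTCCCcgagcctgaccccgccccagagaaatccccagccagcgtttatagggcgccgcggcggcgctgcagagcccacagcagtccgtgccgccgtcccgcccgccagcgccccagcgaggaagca
IL6: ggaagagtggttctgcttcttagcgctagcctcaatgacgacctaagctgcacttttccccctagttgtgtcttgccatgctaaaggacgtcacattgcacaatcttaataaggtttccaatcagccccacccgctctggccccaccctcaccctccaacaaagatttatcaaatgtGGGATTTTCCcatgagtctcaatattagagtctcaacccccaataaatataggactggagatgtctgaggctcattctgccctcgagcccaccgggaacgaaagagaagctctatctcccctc
LCN2: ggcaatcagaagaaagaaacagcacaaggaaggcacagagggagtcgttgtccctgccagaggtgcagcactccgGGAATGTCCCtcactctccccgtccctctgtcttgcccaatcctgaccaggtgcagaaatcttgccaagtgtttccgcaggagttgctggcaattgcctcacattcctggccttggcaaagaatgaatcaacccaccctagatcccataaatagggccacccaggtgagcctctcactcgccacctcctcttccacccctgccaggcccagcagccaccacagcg
In NFKBIA the match spans bases -81 to -72 from the start site and reads as the consensus on the opposite strand. In IL6 it spans -73 to -64 on the gene's own strand, and in LCN2 -175 to -166 on the opposite strand.

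For the other members called higher, 1 or more of their matches are given with 10 bases on either side, each read on the strand on which it begins with GGG, to let the sites be compared. The position after each name is that of the first base of the match in the gene's direction, counted from the start site of its own window. The NFKB2 match at -21 belongs to another start site than those at -107 and -78. Further matches, not shown, begin at -176 and -106 in NFKB2, -135 in BIRC3, -27 in NFKBIB and -239 in NFKBIZ.
NFKB2 at -107: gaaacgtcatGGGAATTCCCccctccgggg
NFKB2 at -78: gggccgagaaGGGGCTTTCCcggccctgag
NFKB2 at -21: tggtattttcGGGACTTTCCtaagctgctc
BIRC3 at -199: aaacccactcGGGGATTTCCatgacccaaa
NFKBIB at -28: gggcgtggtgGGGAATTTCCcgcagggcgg
NFKBIZ at -223: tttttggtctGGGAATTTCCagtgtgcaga
BCL3 at 3: gccgggcgccGGGACTTCCCctgcagccgg
TNFAIP3 at -67: ggatttccacGGGACTTTCCaaagtcacgt
TNFAIP3 at -55: ttgtaggcccGGGGATTTCCacgggacttt
TNIP1 at -42: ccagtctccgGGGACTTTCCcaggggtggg
Members that were not called carried matches too, and 5 are shown for the contrast.
NFKB1 at -49: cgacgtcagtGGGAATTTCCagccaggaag
TRAF3 at -33: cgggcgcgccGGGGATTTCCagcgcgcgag
CYLD at -189: gccggccgaaGGGACTTTCCgctctgtcaa
IRF1 at -50: ggccagggctGGGGAATCCCgctaagtgtt
LTB at -86: acacctggctGGGACTTTCCgcacacccct
The same 10 letters thus stood in members of both kinds: those of NFKBIA, NFKBIB and NFKBIZ, which rose, recur in NFKB1, and those of TNFAIP3 at -67 and TNIP1 recur in CYLD and LTB. IKBKE, TRAF2, ICAM1, SOD2 and CSF2, which rose, held no match to the consensus in their windows.

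**Figure D1:**
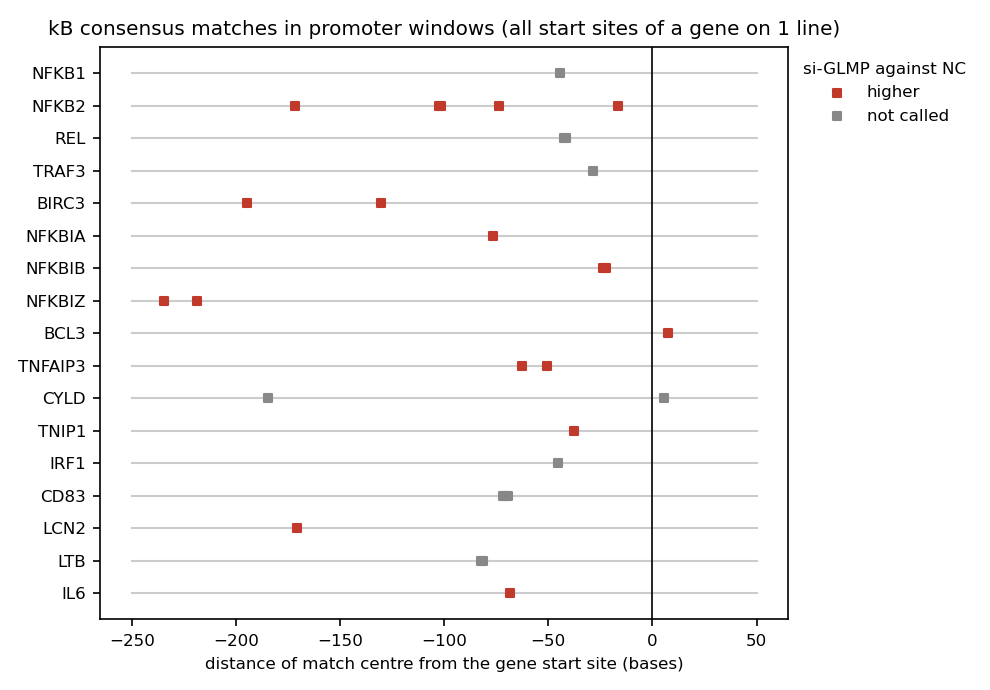
Position of each match to the kB consensus in the promoter windows of the 17 members that hold one, as the distance of its centre from the start site in bases, with red squares for members called higher in si-GLMP and grey squares for members not called. Matches of called and uncalled members lie mostly upstream of the start site, with 1 in BCL3 (called higher) and 1 in CYLD (not called) downstream of it, and windows of different start sites of a gene share a line.

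The knockdown held in every library. GLMP counts were 309, 344 and 347 in NC and 82, 61 and 65 in si-GLMP, so the log2 fold change was -2.25 with an SE of 0.14 (edgeR adjusted p = 1.16e-18). A gene on the opposite strand covers 17.5% of GLMP's exonic length, and without strand its reads cannot be told apart. Library totals ran from 19896875 to 22372878 counts. Of 15900 tested genes, 23.3% were called at an edgeR adjusted p under 0.05, 12.0% higher and 11.3% lower, so calls were common in this comparison. Mitochondrially encoded mRNA made up 6.55%, 8.73% and 6.49% of counts in NC and 5.18%, 5.49% and 5.31% in si-GLMP, so this share separated the groups, and its part in the members' changes was not tested. The 6 epithelial markers were all expressed and summed to between 9109 and 9384 CPM (counts scaled to a common library total) in NC and between 8304 and 9294 in si-GLMP. The 8 leukocyte markers summed to between 1.33 and 1.96 CPM in NC and between 1.93 and 3.37 in si-GLMP, with LYZ, TYROBP and MS4A1 at 0 in all libraries. The 6 fibroblast markers summed to between 5.99 and 7.48 CPM in NC and between 10.5 and 12.4 in si-GLMP, most of it from COL1A1 (4.53 to 6.38 CPM in NC and 9.34 to 10.7 in si-GLMP; named after its values were seen), with COL3A1 at 0 in all libraries. The 4 endothelial markers summed to between 4.82 and 7.68 CPM in NC and between 6.78 and 7.64 in si-GLMP. In bulk RNA, a change in the number of cells of a kind and a change of RNA per cell cannot be told apart.

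Among the 38 members, 19 were called higher in si-GLMP, 2 lower and 15 neither way, and 2 were too low to test. That is 58.3% of the tested members called and 52.8% called higher, beside the 23.3% and 12.0% of all tested genes. The members were chosen with earlier results of these data known, so these shares are not independent evidence of a direction. The median log2 fold change of the tested members was 0.37, against 0.00 for all tested genes. Each of the 36 tested members lay above the count minimum of the test in all NC libraries, so none was tested only because it was high in si-GLMP. The values of the groups did not overlap for 26 of the 36, with si-GLMP above NC for 23 and below for 3. Of all tested genes, 36.5% did not overlap in either direction and 18.5% did so with si-GLMP above NC. Most of the changes were small: only LCN2 and IL6 had a log2 fold change over 1, a size that 1.91% of all tested genes reached in either direction and 1.10% reached upward.

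The calls are given for the 3 kinds of member, beside 23.3% of all tested genes called and 12.0% called higher. Of the 16 pathway components, 5 were higher, 2 lower and 9 not called, with a median log2 fold change of 0.15. That is 43.8% called and 31.2% called higher. Of the 9 negative feedback genes, 7 (77.8%) were higher (BCL3 and NFKBIZ among them), 0 lower and 2 not called, with a median of 0.46. Of the 11 effector targets tested, 7 (63.6%) were higher, 0 lower and 4 not called, with a median of 0.58. The differences between these counts were not tested, and the roles were set with earlier results of these data known.

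**Figure D2:**
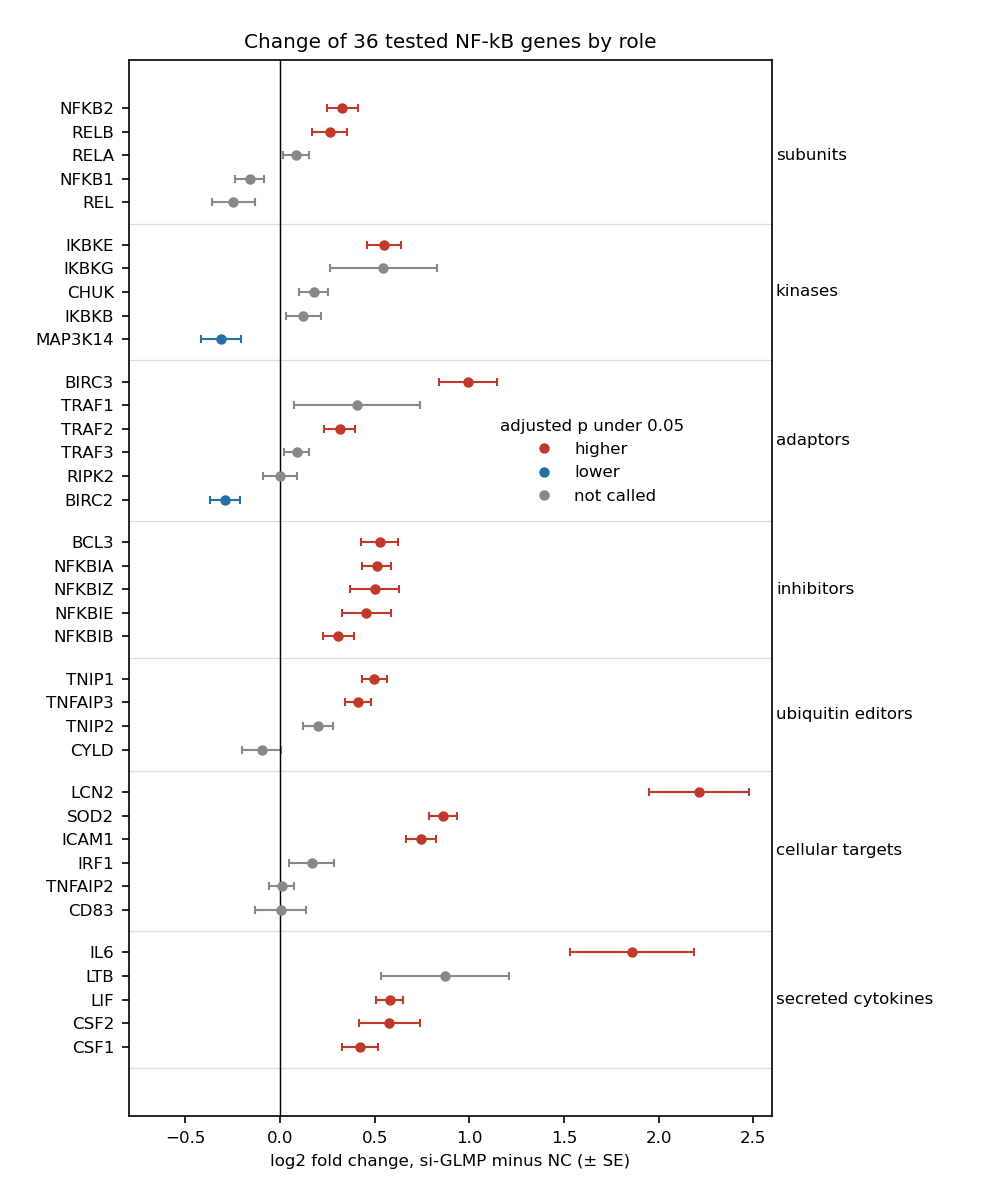
Log2 fold change of the 36 tested members in si-GLMP against NC, with bars for the standard error, ordered within each role and coloured by call (red higher, blue lower, grey not called). All 5 inhibitors lie to the right of 0 between 0.31 and 0.53, LCN2 at 2.21 and IL6 at 1.86 lie farthest to the right, and MAP3K14 and BIRC2 are the blue points.

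Of the 5 subunits, 2 were called higher and 3 were not called. NFKB2, which encodes p100, the precursor of p52, was at 37.6, 35.8 and 35.4 CPM in NC and 44.8, 41.4 and 50.5 in si-GLMP. Every si-GLMP library lay above every NC library, and the log2 fold change was 0.33 ± 0.08 (SE; edgeR adjusted p = 0.00223). RELB, the usual partner of p52, was at 22.2, 21.3 and 21.6 CPM in NC and 25.6, 24.3 and 28.1 in si-GLMP. These groups did not overlap either, and the log2 fold change was 0.26 ± 0.09 (edgeR adjusted p = 0.0351). The RELB call was close to the threshold. Leaving out si-GLMP replicate 3 ended the NFKB2 call (edgeR adjusted p = 0.0537). The RELB call was lost when any 1 of the NC libraries was left out (replicate 1, 0.0765; 2, 0.0834; 3, 0.0997), when si-GLMP replicate 3 was (0.184), and with no filter on low counts (0.0639).

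The subunits of the canonical branch were not called. NFKB1, which encodes p105 and p50, was at 50.2, 50.5 and 48.6 CPM in NC and 45.6, 43.7 and 44.2 in si-GLMP. The si-GLMP libraries were all lower, but the log2 fold change of -0.16 ± 0.08 did not pass (edgeR adjusted p = 0.135). RELA, the main activating subunit, was at 140.9, 162.2 and 137.5 CPM in NC and 157.8, 152.4 and 156.5 in si-GLMP. NC replicate 2 alone reached above the si-GLMP libraries, and the log2 fold change was 0.08, with a 95% interval from -0.05 to 0.22. REL, the subunit best known from lymphocytes, had -0.25 ± 0.11 (edgeR adjusted p = 0.116) with overlapping groups. A noncoding gene on the same strand covers 43.3% of REL's exonic length in the annotation.

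Per exonic length, RELA was the most abundant subunit in NC, at 26.9 ± 2.45 RPKM (CPM per kilobase of exon; SD, n = 3). NFKB2 at 8.09 ± 0.261 and NFKB1 at 7.95 ± 0.158 RPKM did not differ beyond their spread. RELB followed at 7.15 ± 0.152 and REL at 1.15 ± 0.136 RPKM. The ratio of NFKB2 to NFKB1, per length, was 1.05, 0.990 and 1.02 in NC and 1.37, 1.32 and 1.59 in si-GLMP. The exact two-sided permutation test of this ratio gave p = 0.1, the smallest that 3 against 3 libraries allow. It was 1 of 3 ratios of member pairs computed after their values were seen, with a Benjamini-Hochberg adjusted permutation p of 0.1 for each.

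**Figure D3:**
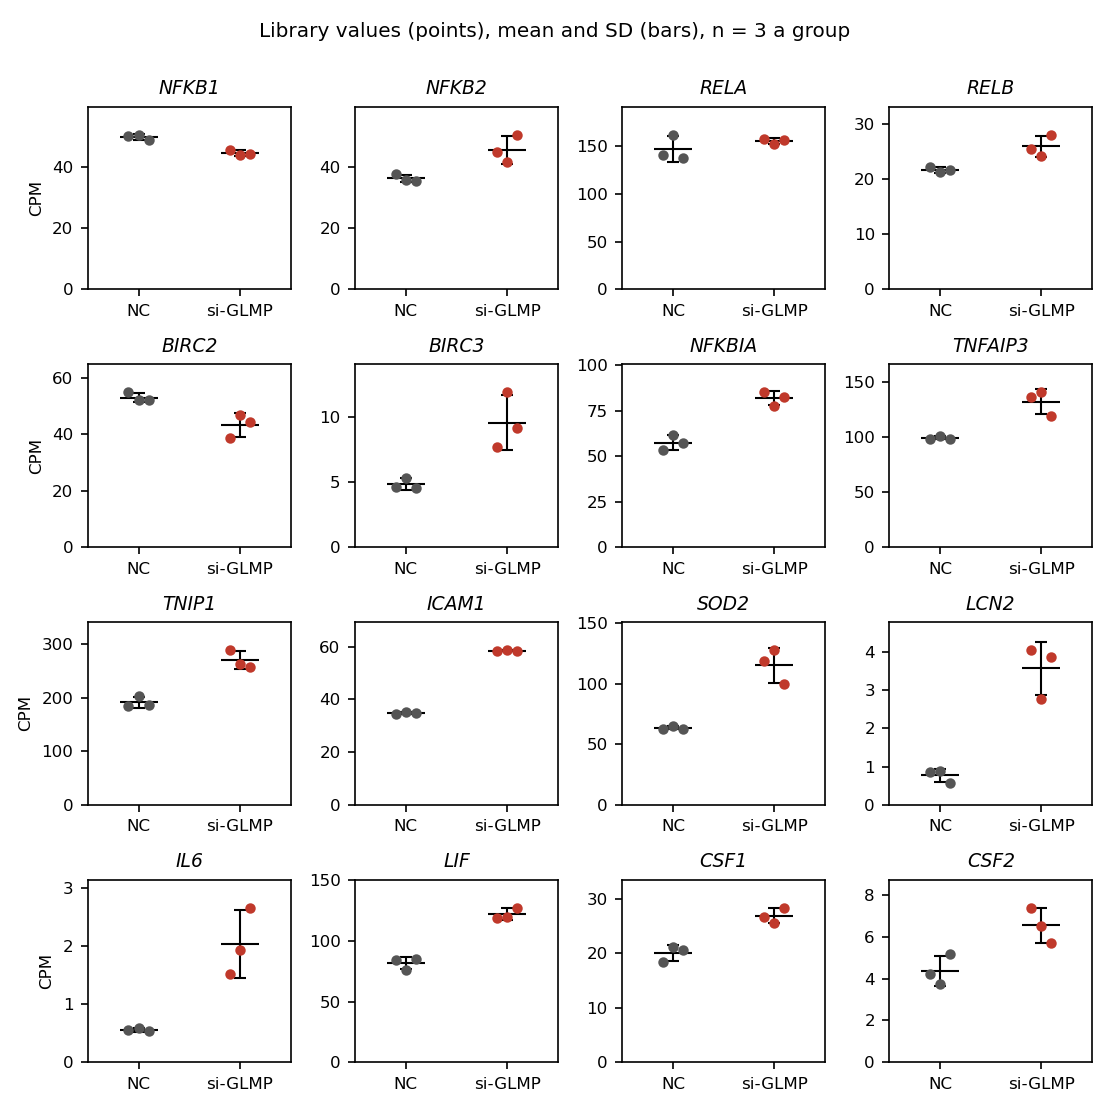
CPM of 16 members in each library (points), with the mean and SD as bars, for NC in grey and si-GLMP in red (n = 3 each), every axis starting at 0. The groups stand apart in all panels but RELA, where 1 NC library at 162.2 CPM lies above the si-GLMP libraries; NFKB1 and BIRC2 are lower in si-GLMP.

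Among the kinase genes, 1 rose and 1 fell. IKBKE encodes IKK-epsilon, a relative of the IkB kinases that also serves interferon induction. It was at 21.6, 20.0 and 23.1 CPM in NC and 33.0, 31.8 and 29.9 in si-GLMP, clearly apart, and the log2 fold change was 0.55 ± 0.09 (edgeR adjusted p = 5.15e-06). MAP3K14 encodes NIK, the kinase that starts the non-canonical branch. It was at 18.6, 19.0 and 20.0 CPM in NC and 14.4, 15.1 and 16.9 in si-GLMP, so the si-GLMP libraries were all lower. Its log2 fold change was -0.31 ± 0.10 (edgeR adjusted p = 0.0228), opposite in sign to those of NFKB2 and RELB. The MAP3K14 call was lost when NC replicate 1 (edgeR adjusted p = 0.0504) or 3 (0.112) was left out, and likewise si-GLMP replicate 1 (0.0901) or 2 (0.0515). An antisense gene covers 12.3% of its exonic length, and without strand its reads cannot be told apart.

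The 3 subunits of the IkB kinase complex were not called. CHUK, the catalytic subunit IKK-alpha, was at 59.1, 53.0 and 59.2 CPM in NC and 63.8, 68.9 and 61.1 in si-GLMP, all si-GLMP libraries being higher. Its log2 fold change was 0.18 ± 0.08 (edgeR adjusted p = 0.0853), and it passed with the trend on GC content and length removed (0.0299), an alternative chosen after seeing the data. IKBKB, the catalytic subunit IKK-beta, had 0.12 ± 0.09 (edgeR adjusted p = 0.375). IKBKG, the regulatory subunit NEMO, was the most variable member of its group, with 26.6, 15.8 and 19.1 CPM in NC and 26.1, 38.4 and 25.1 in si-GLMP. NC replicate 1 lay within the range of si-GLMP, and si-GLMP replicate 2 stood above all others. Its log2 fold change was 0.55 ± 0.28 (edgeR adjusted p = 0.269), and it passed without NC replicate 1 (0.000406), with no filter on low counts (0.0240) and by limma-voom (0.00411). IKBKG has a near-identical pseudogene, so its counts are uncertain.

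The adaptors include a pair of neighbouring paralogues that moved in opposite directions. BIRC2 and BIRC3 encode cIAP1 and cIAP2, ubiquitin ligases that attach to TRAF proteins, support signalling from the TNF receptor and keep NIK low. Both lie on the plus strand of chromosome 11, BIRC3 from 102317450 to 102339403 and BIRC2 from 102347211 to 102378670 (GENCODE 29, GRCh38). BIRC3 was at 4.57, 5.33 and 4.53 CPM in NC and 7.67, 11.9 and 9.11 in si-GLMP, and the log2 fold change was 0.99 ± 0.15 (edgeR adjusted p = 1.07e-06). BIRC2 was at 54.9, 52.1 and 52.1 CPM in NC and 38.6, 47.0 and 44.4 in si-GLMP, and the log2 fold change was -0.29 ± 0.08 (edgeR adjusted p = 0.00516). For neither gene did the groups overlap, and leaving out si-GLMP replicate 1 ended the BIRC2 call (edgeR adjusted p = 0.0571). BIRC2 remained the more abundant of the pair: the ratio of BIRC3 to BIRC2, per length, was 0.0547 ± 0.00613 in NC and 0.132 ± 0.0178 in si-GLMP (SD, n = 3 each; exact permutation p = 0.1, the smallest possible).

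Of the other adaptors only TRAF2 was called. TRAF2, which recruits the cIAPs to receptors, was at 36.9, 34.3 and 36.3 CPM in NC and 47.5, 40.0 and 46.1 in si-GLMP. The groups stood apart, and the log2 fold change was 0.31 ± 0.08 (edgeR adjusted p = 0.00345). TRAF3, which holds NIK for destruction, was at 136.1, 129.9 and 132.9 CPM in NC and 147.3, 132.3 and 144.2 in si-GLMP. Its groups overlapped, with a log2 fold change of 0.09 and a 95% interval from -0.05 to 0.22. RIPK2, the kinase of NOD receptor signalling, had a log2 fold change of 0.00 (95% interval -0.18 to 0.18). TRAF1, itself a target of NF-kB, had between 14 and 44 counts a library and overlapping groups (log2 fold change 0.41 ± 0.33, edgeR adjusted p = 0.422), so a change of moderate size was not detectable at this depth.

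All 5 members of the IkB type were higher in si-GLMP, and for each of them the groups did not overlap. Among all tested genes, 12.0% were called higher and 18.5% had si-GLMP above NC without overlap. NFKBID, a gene of the IkB type outside the members, went the other way. It was at 10.8, 11.0 and 10.8 CPM in NC and 7.9, 8.5 and 9.4 in si-GLMP. Its log2 fold change was -0.34 ± 0.13 (edgeR adjusted p = 0.0425), close to the threshold, and the alternative fits were not examined for it. NFKBIA encodes IkB-alpha, the inhibitor that is destroyed and remade in each round of signalling. It was at 53.2, 61.7 and 57.4 CPM in NC and 85.0, 77.7 and 82.5 in si-GLMP, and the log2 fold change was 0.51 ± 0.07 (edgeR adjusted p = 3.06e-07). BCL3, an atypical IkB that works in the nucleus with p50 and p52, was at 20.1, 22.3 and 19.0 CPM in NC and 32.3, 26.3 and 29.9 in si-GLMP. The lowest si-GLMP library was above the highest NC library, and the log2 fold change was 0.53 ± 0.10 (edgeR adjusted p = 2.69e-05). NFKBIZ, the nuclear IkB-zeta that helps to induce IL6 and LCN2, rose by 0.50 ± 0.13 (edgeR adjusted p = 0.00326). NFKBIE, which encodes IkB-epsilon, rose by 0.46 ± 0.13, and NFKBIB, which encodes IkB-beta, by 0.31 ± 0.08 (edgeR adjusted p = 0.00554 and 0.00280). Summed over the 5 genes, the level was 128.3, 136.2 and 131.0 CPM in NC and 187.8, 173.0 and 180.3 in si-GLMP. The ratio of NFKBIA to RELA, per length, was 0.902 ± 0.0512 in NC and 1.21 ± 0.0338 in si-GLMP (SD, n = 3 each; exact permutation p = 0.1, the smallest possible).

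Of the 4 regulators that act on ubiquitin chains, 2 rose. TNFAIP3 encodes A20, an enzyme that removes and attaches ubiquitin chains to end TNF receptor signalling. It was at 98.5, 101.2 and 98.8 CPM in NC and 136.8, 141.0 and 119.4 in si-GLMP, and the log2 fold change was 0.41 ± 0.07 (edgeR adjusted p = 6.61e-06). TNIP1 encodes ABIN1, a ubiquitin-binding partner of A20. It was at 185.2, 202.5 and 186.0 CPM in NC and 289.2, 262.8 and 257.9 in si-GLMP, and the log2 fold change was 0.50 ± 0.07 (edgeR adjusted p = 2.91e-08). Both genes were well apart between the groups. TNIP2, which encodes the related ABIN2, was at 47.0, 42.8 and 44.7 CPM in NC and 55.3, 50.1 and 49.4 in si-GLMP. Although its groups did not overlap, the log2 fold change of 0.20 ± 0.08 did not pass (edgeR adjusted p = 0.0560). It passed with upper-quartile scaling (0.0456), with the replicate number as a block (0.0404) and without si-GLMP replicate 2 (0.0389). CYLD, a deubiquitinase that acts on the same chains and is a tumour suppressor, had -0.10 ± 0.10 (95% interval -0.31 to 0.11) with overlapping groups.

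**Figure D4:**
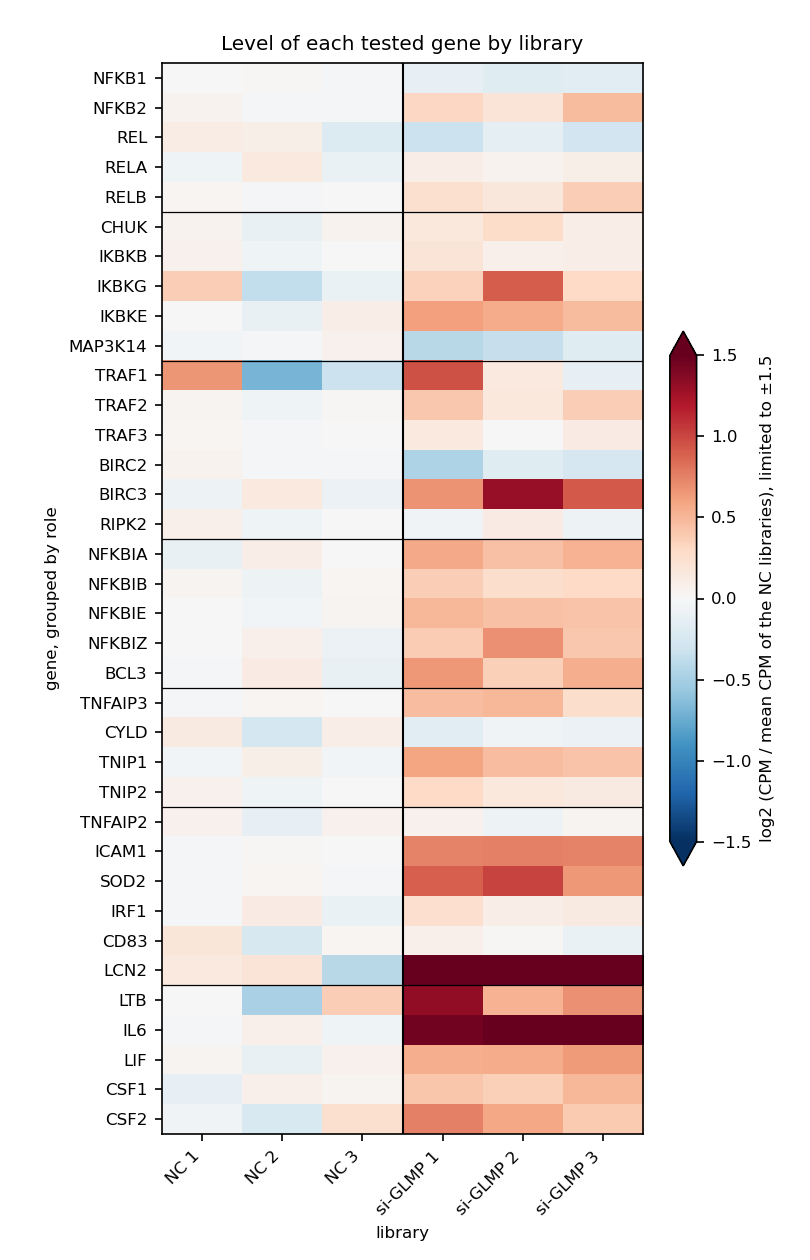
Level of the 36 tested members in each library as log2 of the CPM over the mean of the NC libraries, limited to ±1.5 in the colours (red above, blue below the NC mean), with black lines between the roles and between the groups. The block of inhibitors is red in all 3 si-GLMP libraries, LCN2 and IL6 reach the end of the scale, and IKBKG and TRAF1 vary as much within the groups as between them.

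Among the cellular targets, 3 rose and 3 were not called. LCN2 encodes lipocalin 2, a siderophore-binding defence protein that epithelia secrete. Its counts were 17, 18 and 13 in NC and 83, 59 and 80 in si-GLMP, or 0.854, 0.881 and 0.577 CPM against 4.06, 2.78 and 3.88. The log2 fold change of 2.21 ± 0.26 (edgeR adjusted p = 2.05e-09) was the largest of all members, 4.63-fold, from a level near the count minimum of the test. SOD2, the mitochondrial superoxide dismutase, was at 62.9, 64.9 and 63.1 CPM in NC and 118.8, 128.1 and 99.7 in si-GLMP (log2 fold change 0.86 ± 0.08, edgeR adjusted p = 3.12e-13). Its NC libraries were tight and its si-GLMP libraries wider, with no overlap. In the annotation it shares 5.12% of its exonic length with a second SOD2 entry on the same strand. ICAM1, the adhesion molecule that binds leukocyte integrins, was at 34.6, 35.3 and 34.8 CPM in NC and 58.4, 58.7 and 58.3 in si-GLMP. The libraries of each group lay close together and the groups far apart (log2 fold change 0.75 ± 0.08, edgeR adjusted p = 5.51e-11). An antisense gene covers 22.0% of its exonic length.

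The remaining cellular targets were not called. TNFAIP2, a TNF-induced gene of membrane protrusions, was abundant, at 248.6, 218.6 and 248.8 CPM in NC and 249.5, 225.8 and 245.3 in si-GLMP. The ranges coincided, and the log2 fold change was 0.01 with a 95% interval from -0.12 to 0.14. At 47.5 ± 3.46 RPKM in NC (SD, n = 3), it had the highest level per length of all members. CD83, a surface protein of activated immune cells, was at 10.1, 7.54 and 9.05 CPM in NC and 9.38, 9.01 and 8.33 in si-GLMP (log2 fold change 0.00, 95% interval -0.26 to 0.27). IRF1, a transcription factor shared by the interferon and NF-kB systems, had 0.17 ± 0.12 (edgeR adjusted p = 0.342), and 22.0% of its exonic length overlaps a gene on the opposite strand. IRF1 and CD83 both carry a kB match in a promoter window and were not called. ICAM1 and SOD2 rose with no match in the windows read, and sites elsewhere were not searched.

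Of the secreted cytokines, 4 rose and none was called lower. IL6, the acute phase cytokine, had 11, 12 and 12 counts in NC and 31, 41 and 55 in si-GLMP, or 0.552, 0.587 and 0.532 CPM against 1.52, 1.93 and 2.66. The groups were far apart in ratio at a low level, and the log2 fold change was 1.86 ± 0.33 (edgeR adjusted p = 1.32e-05). Antisense and opposite-strand genes overlap IL6, the longer covering 20.7% of its exonic length. LIF, a cytokine of the same receptor family, was at 83.9, 75.7 and 85.3 CPM in NC and 118.7, 119.8 and 127.2 in si-GLMP, and the log2 fold change was 0.58 ± 0.07 (edgeR adjusted p = 3.00e-09). It was by far the most abundant cytokine among the members, at 20.6 ± 1.30 RPKM in NC against 0.269 ± 0.0134 for IL6 (SD, n = 3 each).

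The colony-stimulating factors, which direct the growth of myeloid cells, were measured at different depths. CSF1, the macrophage factor, was at 18.4, 21.1 and 20.6 CPM in NC and 26.6, 25.6 and 28.3 in si-GLMP, and the log2 fold change was 0.42 ± 0.10 (edgeR adjusted p = 0.000561). CSF2, the factor for granulocytes and macrophages, was at 4.22, 3.72 and 5.15 CPM in NC and 7.38, 6.51 and 5.72 in si-GLMP, with the highest NC library just below the lowest si-GLMP library. Its log2 fold change was 0.58 ± 0.16 (edgeR adjusted p = 0.00590), and the call was lost without si-GLMP replicate 1 (0.0529). CSF3, the granulocyte factor, had 5 counts in the NC group and 5 in the si-GLMP group, and each total has an exact Poisson 95% interval from 1.62 to 11.7. TNF, the classical inducer of the pathway, had 5 counts in NC and 15 in si-GLMP, with intervals from 1.62 to 11.7 and from 8.39 to 24.7. These intervals overlap, which is not a test of the difference between the totals. CSF3 and TNF were too low to test, 3 counts being worth 0.133 to 0.151 CPM depending on the library. LTB, which encodes a subunit of the ligand that triggers the non-canonical branch, had 15, 11 and 22 counts in NC and 39, 23 and 25 in si-GLMP. The groups did not overlap, but the log2 fold change of 0.87 ± 0.34 just missed the threshold (edgeR adjusted p = 0.0537). It passed when NC replicate 3 (0.0414) or si-GLMP replicate 2 (0.0466) was left out and with a filter of 1 CPM in 3 libraries (0.0435).

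Other genes of the pathway changed in both directions. The list of 42 holds receptors, proximal adaptors and ubiquitin ligases, and also further regulators such as NFKBID, NKRF and OTULIN. Of these genes, 11 were higher, 7 lower (NFKBID among them) and 24 not called, with a median log2 fold change of 0.10. That is 42.9% called, beside 23.3% of all tested genes. This list too was chosen with earlier results of these data known. IL1RAP, the shared subunit of interleukin-1 receptors, rose from 13.5 ± 1.77 to 27.3 CPM, and IRAK2, a kinase-like adaptor of the same receptors, from 16.7 ± 2.42 to 33.7 CPM. Their log2 fold changes were both 1.01 (edgeR adjusted p = 1.35e-10 and 4.88e-12). The receptor genes TNFRSF12A, for TWEAK, and TNFRSF10A, for the death ligand TRAIL, rose by 0.48 and 0.45 (edgeR adjusted p = 3.61e-07 and 2.98e-05). TRAF5, an adaptor of the TNF receptor family, fell by 1.06 ± 0.14 in log2 units (edgeR adjusted p = 1.77e-08). MALT1, a paracaspase, had -0.33, MAP3K7, the kinase TAK1 above the IkB kinases, -0.26, and BTRC, the ligase subunit that marks IkB for destruction, -0.26 (edgeR adjusted p = 0.00695, 0.00481 and 0.0203). The BTRC call was lost without NC replicate 2 (edgeR adjusted p = 0.113), si-GLMP replicate 1 (0.0759) or si-GLMP replicate 3 (0.0530). The number of lower genes was 4 in place of 7 when any of NC replicates 1 and 2 and si-GLMP replicates 1 and 3 was left out, and the total was 12 in place of 18 without NC replicate 2 or si-GLMP replicate 3.

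Target genes outside the members were mostly higher as well. Of 30 such genes, 18 could be tested, and 14 were higher, 1 lower and 3 not called, with a median log2 fold change of 0.59. That is 83.3% called and 77.8% called higher, beside 23.3% and 12.0% of all tested genes. CXCL1 and IL32, both called higher, were at 0.391 CPM in NC replicate 2, below the count minimum of the test (0.481 CPM). They were tested only because si-GLMP was high, so their calls add nothing to these shares. C3, the central complement component, rose by 1.68 ± 0.08, and CXCL8, the neutrophil chemokine, by 1.42 ± 0.12 (edgeR adjusted p = 2.27e-22 and 2.56e-12). ZC3H12A, an RNase that degrades cytokine mRNAs including that of IL6, rose by 0.70, and PLAU, the urokinase, by 0.63. EBI3, a cytokine subunit, was the 1 lower gene, with -0.91 ± 0.34 (edgeR adjusted p = 0.0418). Its call was lost in 7 of 15 alternatives, where the edgeR or DESeq2 adjusted p lay between 0.0592 and 0.186. The list was written with earlier results of these libraries known and includes genes already reported as changed, so its count is not independent evidence of a direction.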

How the data were processed

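Libraries were grouped by their titles into 3 NC and 3 si-GLMP. The authors deposited a table of whole-number read counts per gene, not normalized, for 60664 genes, and all 6 columns were matched by title. The submitters' processing notes name HISAT2 and GRCh38. The counter, annotation release and strandedness were not given in the sources used here.

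Genes were kept by filterByExpr (minimum count 10), scaled by TMM and compared with edgeR 4.0.16 in R 4.3.3 (robust quasi-likelihood F test, no covariate). Benjamini-Hochberg adjustment was made over all 15900 tested genes, with a threshold of 0.05. Standard errors are the fold change over the square root of F. CPM are TMM-scaled, and RPKM used exonic lengths of GENCODE 29 (the union of exons, which understates genes with long rare exons such as SOD2). The biological coefficient of variation was 6.91%. Counting intervals cover counting error only. On data simulated for this comparison (15900 genes), 17, 37, 43 and 49 of 50 genes changed 1.25-, 1.5-, 2- and 3-fold were recovered, with 3 unchanged genes called. The simulation changed a far smaller share of genes than was called in the data and gave all genes the same variation. The recovered numbers are therefore not the detection rates of the real comparison. Named were all members, GLMP and, of 2 further lists, up to 4 called genes in each direction by adjusted p. NFKBID was named besides, after its values were seen, as a further gene of the IkB type. CXCL1 and IL32 were named after their values were seen, for their low level in NC.

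The members, roles and lists were chosen with earlier results of these data known. Alternatives were RLE and upper-quartile scaling, 2 other filters, DESeq2 1.42.0, limma-voom (limma 3.58.1), the replicate number as a block, each library left out, a log2 fold change over 1 and, chosen after seeing the data, removal of a trend on GC content and exonic length.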

Additional observations from a re-analysis of the deposited data

How the results depend on the processing

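Of the 21 members called, 16 were called under each of the 15 other fits; the exceptions were NFKB2, RELB, MAP3K14, BIRC2 and CSF2, each without at least 1 library. The number of called members stayed between 18 and 22. The number called lower, 2, was between 0 and 2 when a library was left out. The lower count of the list of other pathway genes, 7, was then between 4 and 6, and that of the further targets, 1, between 0 and 1. The latter was also 0 with no filter on low counts and with DESeq2. With an absolute log2 fold change over 1 required, 304 genes were called (175 higher, 129 lower), among them 2 members (2 higher, 0 lower). Replicate numbers gave no pairing: deviations of same-numbered libraries correlated at 0.039, 0.026 and 0.001, and NC replicate 3 correlated best with si-GLMP replicate 2. With the replicate block, 22 members and 3972 genes were called, and among members only TNIP2 changed its call. Sign changes occurred in 3 uncalled members near 0. RIPK2 had -0.0024 with RLE scaling and with DESeq2, -0.0005 with the replicate block, -0.0072 with the GC and length trend removed and -0.0079 with both, and lay between -0.065 and 0.046 with a library left out. CD83 had -0.0009 with RLE scaling and DESeq2, -0.025 with the trend removed and -0.021 with the block as well, and lay between -0.101 and 0.104 with a library left out. TNFAIP2 lay between -0.049 and 0.053 with a library left out. The share of mitochondrially encoded mRNA was higher in NC (6.49% to 8.73%) than in si-GLMP (5.18% to 5.49%). Without NC replicate 2, which had the highest, 20 members were called. NC replicates 1 (6.55%) and 3 (6.49%) still lay above every si-GLMP library in this share. That count therefore does not bear on the part of this share, which was not tested. Depth limits TNF, CSF3, LTB and TRAF1.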
